A study of Mus musculus with 2 samples.

Results

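The Snrpn-Ube3a locus of mouse chromosome 7 was described here through 7 genes, Snurf, Snrpn, Snhg14, Ube3a, Ndn, Magel2 and Mkrn3. They were chosen by name, and each matched 1 annotated gene, making 7 of the 55536 annotated genes. RNA came from cerebral cortex of the left hemisphere. The mice were B6CASTF1/J females, 18 to 20 months old, first-generation hybrids of C57BL/6J and CAST/EiJ. There was 1 group of 2 libraries (replicates 1 and 2), with no treatment and no contrast, each made from 300 ng of total RNA with spike-in RNAs. The labels number the libraries as biological replicates 1 and 2, but both point to the same donor entry. The spread given throughout (SD, n = 2) may therefore be technical. Transcripts of the maternal and paternal chromosomes were not separated in the values used here.

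The locus is a textbook case of genomic imprinting, in which a gene is read mainly from the chromosome of 1 parent. Snurf, Snrpn, Ndn, Magel2, Mkrn3 and Snhg14 are read from the paternal chromosome, under an imprinting centre at the Snrpn promoter. Snhg14 is a very long host transcript that starts upstream of or at Snrpn, carries tandem arrays of small nucleolar RNAs (snoRNAs) in its introns and, in neurons, runs antisense into Ube3a. Ube3a is therefore read mainly from the maternal chromosome in neurons. Loss of the paternal genes in humans causes Prader-Willi syndrome, and loss of maternal UBE3A causes Angelman syndrome.

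The sequences of the locus show which reads can be told apart. Snurf encodes a small basic protein of unknown function, from the same bicistronic messenger as Snrpn. The annotation gives it 1 transcript, Snurf-201, which is its bare coding sequence of 216 bases (chr7:59995449-60005049, minus strand, mm10, GENCODE M21; the capitals mark the 10 bases at its 5′ end that are absent from the transcript Snrpn-202).
Snurf-201: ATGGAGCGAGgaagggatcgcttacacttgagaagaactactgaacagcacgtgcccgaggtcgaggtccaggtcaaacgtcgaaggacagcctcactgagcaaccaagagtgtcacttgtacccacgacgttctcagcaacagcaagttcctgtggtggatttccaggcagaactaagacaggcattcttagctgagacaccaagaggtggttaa
This run lies whole, at bases 63 to 278, within Snrpn-201, and whole within a transcript of Gm38393, an overlapping entry. Its last 206 bases also lie within Snrpn-202. Snrpn-201 and Snrpn-202 in turn share an unbroken run of 1853 bases, 95.9% of Snrpn-201 and 89.3% of Snrpn-202. They differ in their first exons, whose starts lie 135 kb apart, with 72 bases of Snrpn-201 and 223 bases of Snrpn-202 before the shared run. A read from most of either messenger therefore matches Snrpn-201 and Snrpn-202 alike.

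Several starts of the paternal genes share a short motif. The 300-base windows around RefSeq starts (250 bases before to 50 after, GRCm38.p6) covered all 7 members in 8 distinct windows. The letters CGCATGCG, a palindrome found within the binding motif of nuclear respiratory factor 1, occurred in 5 of the 8 windows and in 1.86% of all 32817 windows, searched on both strands. The letters were chosen after the windows had been read, so the count is a description. The 5 occurrences are shown with 24 bases each, the motif in capitals, in order along the chromosome.
Snrpn and Snurf start: ttgcctgggaCGCATGCGtaggga
Snrpn upstream start: caaacatgcaCGCATGCGtcgttg
Snrpn-202 start: caaacatccaCGCATGCGtgatgg
Snhg14 and Snrpn far upstream start: caaacatccaCGCATGCGtgattg
Ndn start: cttcccaacaCGCATGCGcaatat
They lie at chr7:60005150-60005173, chr7:60048036-60048059, chr7:60140290-60140313 and chr7:60450227-60450250 on the minus strand and at chr7:62348244-62348267 on the plus strand. The motif begins at base 37 of the RefSeq transcript in the first, and 71, 78, 63 and 23 bases before the start in the others. These positions depend on the annotation. The GENCODE start of Snrpn-201 lies 88 bases after the nearest RefSeq start, so the first motif lies before it. The GENCODE transcript Ndn-201, used for the levels here, begins at chr7:62346569, so the Ndn motif lies within it. The 3 upstream windows of Snrpn and Snhg14 match each other at 20 to 23 of the 24 bases, and the other pairs at 11 to 14. Each of these counts includes the 8 motif letters, which match in every pair because the windows were cut around them. The windows of Ube3a, Magel2 and Mkrn3 did not hold these letters.

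The snoRNA arrays make up most of the annotated genes of the locus. From Ube3a to Mkrn3, a stretch of 3191 kb (chr7:59228750-62420139), the annotation lists 266 genes, of which 210 are snoRNA genes. Of these, 208 lie inside Snhg14 on its strand, and 206 lie outside its annotated exons. The array nearer to Snrpn holds 68 genes of 94 bases, from 100 to 332 kb downstream of the Snrpn-201 start, in 25 distinct sequences; 17 of them carry a Snord116 symbol. The array nearer to Ube3a holds 130 genes of 79 bases, from 386 to 661 kb downstream, in 52 distinct sequences. The most frequent sequence of each is shown, with the C box and the D box, the letters by which this class of RNA is recognised and processed, in capitals.
Snord116l17, shared by 30 genes: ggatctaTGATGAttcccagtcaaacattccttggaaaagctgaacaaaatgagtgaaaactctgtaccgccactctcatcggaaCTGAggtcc
Gm24866, shared by 33 genes: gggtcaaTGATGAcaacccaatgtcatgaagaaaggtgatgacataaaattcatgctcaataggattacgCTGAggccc
These copies are at chr7:59861731-59861824 and chr7:59393561-59393639, both on the minus strand. All 210 snoRNA genes and all 20 microRNA genes of the stretch had 0 expected counts. No gene of 99 bases or fewer was given an effective length above 0 in these tables, so their counts of 0 say nothing of the RNAs themselves.

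Of the 7 members, 5 reached 1 TPM (counts divided by the effective length and scaled to the library) in both libraries, against 26.7% of all annotated genes. The tissue label was checked against markers. The 6 cortical markers used, Slc17a7 and Camk2a among them, were at 1 TPM or more in each library. Of 6 markers of other brain regions and the pituitary, 5 stayed below 1 TPM, and Ttr, a choroid plexus gene, had 6.69 TPM in replicate 1, with 2.84 TPM in replicate 2. Genes took 32357983 expected counts in replicate 1, with 24798683 in replicate 2. Against these, 3 counts, which a count of 0 still allows, are 0.0927 and 0.121 CPM. Intervals and limits given here cover counting error only. Unless named otherwise, levels are from the gene tables, which were made from a transcriptome alignment.

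**Figure D1:**
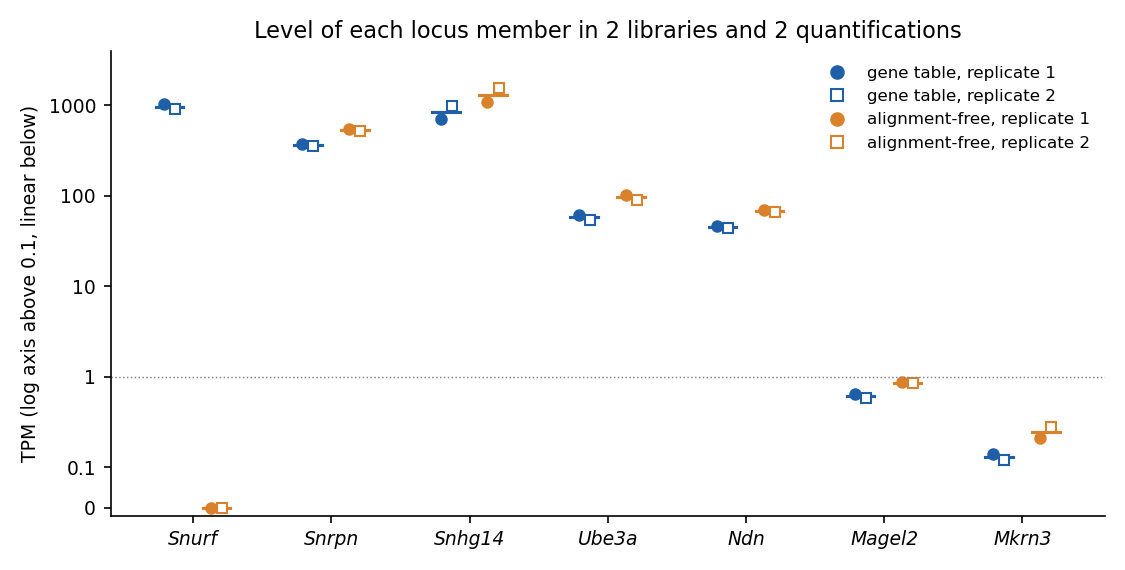
Level of each of the 7 members in TPM (log axis above 0.1, linear below) in replicate 1 (filled circles) and replicate 2 (open squares), from the gene table (blue) and the alignment-free table (orange), with a bar at the mean of both libraries and a dotted line at 1 TPM. The members span from 967 TPM for Snurf to 0.130 TPM for Mkrn3 in the gene table, and Snurf is listed at 0 in the alignment-free tables.

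Snrpn encodes SmN, a core protein of the spliceosome found mainly in brain. It had 372 TPM in replicate 1, with 356.5 TPM in replicate 2, from 15403 and 11056 expected counts, and averaged 364 ± 10.9 TPM. That level ranked 101 among protein-coding genes. Snurf had 1029.6 TPM in replicate 1, with 904 TPM in replicate 2, averaging 967 ± 89.0 TPM, which ranked it 18 among protein-coding genes. Its counts were lower than those of Snrpn in both libraries, 2716 and 1783. For TPM, the counts were divided by an effective length of 117 bases, against 1837 and 1839 bases for Snrpn.

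The level of Snurf differed between the quantifications. Both kinds of table were made from the same libraries, and the alignment-free tables listed Snurf at 0 in replicates 1 and 2. Snrpn there had 546 and 524 TPM. Across the 5 members at 1 TPM, Snurf alone lay more than 2-fold apart between the gene table and the alignment-free TPM (log2 of each value plus 0.1), against 24.8% of the 17416 genes at 1 TPM in either kind of table; over all 7 members it was likewise 1, against 17.2% of all genes. The other 6 members were lower in the gene table than in the alignment-free tables, with log2 ratios from -0.42 for Magel2 to -0.73 for Ube3a. The median over the 17416 genes was -0.71, and the 2-fold cut was taken around 0, not around this median. The expected counts of Snurf and Snrpn were fractional in both libraries, which at gene level marks reads shared out between transcripts of different genes. They were 2 of 7 members with fractional counts in both, against 14.1% of genes with counts.

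Snurf and Snrpn were also summed, since they share reads. Together they had 1401 TPM in replicate 1, with 1260.2 TPM in replicate 2 (1331 ± 99.9) in the gene table, against 546 and 524 TPM (535 ± 15.6) in the alignment-free tables. The sums lay closer in counts than in TPM, with 18120 and 12839 in the gene table against 16357 and 11802 estimated counts in the alignment-free tables. Snurf held 72.6% ± 1.24 of the summed TPM and 14.4% ± 0.778 of the summed counts in the gene table. Dividing the summed counts by the effective length of Snrpn-201 gave 427 ± 16.4 TPM, a value in which Snurf and Snrpn are 1 messenger.

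The 2 quantifications also named different Snrpn messengers. In the alignment-based tables, Snrpn-201, from the start beside Snurf, held 97.2% of Snrpn TPM in replicate 1 and 96.1% in replicate 2. In the alignment-free tables, Snrpn-202, from the start farther upstream, held 99.96% and 99.94%. Within each quantification the libraries differed by at most 1.12 percentage points. The coding length is 720 bases in both transcripts, so they encode proteins of the same length and differ in what precedes them. Which start was used was not tested beyond these tables.

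**Figure D2:**
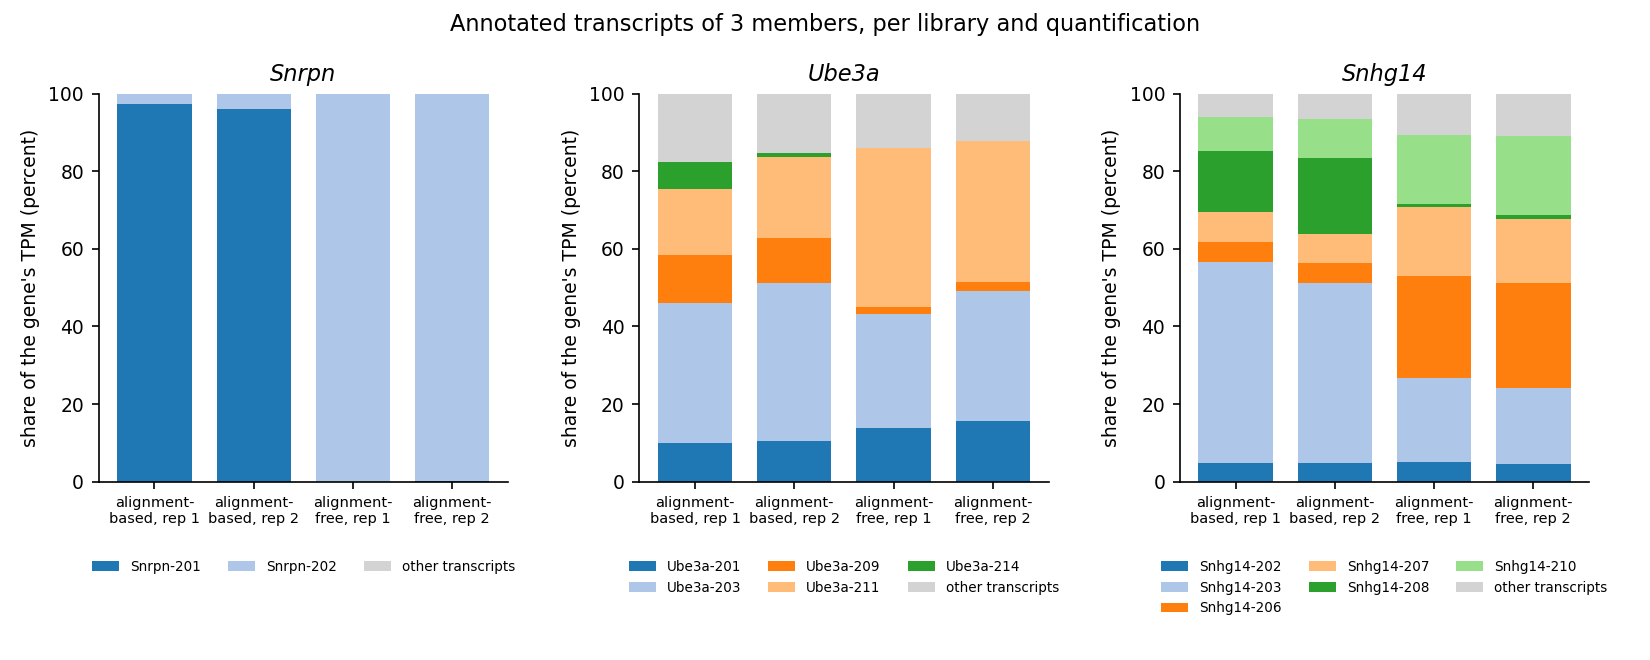
Share of each gene's TPM (percent) given to its annotated transcripts, for Snrpn, Ube3a and Snhg14, in 4 stacked bars per gene (alignment-based tables of replicates 1 and 2, then alignment-free tables of replicates 1 and 2); transcripts under 5 percent in every table are pooled in grey. Snrpn-201 holds 96.6% in the alignment-based tables and Snrpn-202 nearly all of the bar in the alignment-free tables, while the 2 libraries of a quantification look alike.

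Snrpn was the most abundant of the Sm protein genes. Its close relative Snrpb encodes SmB, whose place in the spliceosome SmN takes in neurons. Snrpb had 46.9 TPM in replicate 1, with 43.8 TPM in replicate 2. Snrpn thus made up 88.8% and 89.1% of the summed Snrpn and Snrpb TPM (88.9% ± 0.185), a ratio of Snrpn to Snrpb of 7.92 and 8.14. All 7 other Sm core genes reached 1 TPM in each library, and their median was 25.5 ± 2.84 TPM. Snrpd2 and Snrpd3 followed Snrpb, at 31.1 ± 0.679 and 26.9 ± 2.11 TPM, and Snrpf was lowest, at 5.58 ± 0.0283 TPM. The level of Snrpn lay above each of these in both libraries.

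Ube3a encodes a ubiquitin ligase, the founding member of the HECT family, which tags proteins for degradation. It had 61.8 TPM in replicate 1, with 54.1 TPM in replicate 2, from 6149 and 4509 counts (58.0 ± 5.47 TPM). Of 18 annotated transcripts, the 11 protein-coding ones held 97.7% and 97.0% of its counts, and 4 with a retained intron held 2.12% and 2.90%. Ube3a-203, with 9856 bases and the longest coding sequence of the gene (2610 bases), held 80.4% of the counts but 38.5% ± 3.19 of the TPM. The remainder of the TPM was given mostly to short transcripts. Ube3a-211, a 579-base fragment, held 18.8% ± 2.69 of TPM in the alignment-based tables and 38.6% ± 3.43 in the alignment-free ones, from 1.92% and 2.39% of counts. Ube3a-209, of 616 bases, held 11.9% ± 0.507 against 2.10% ± 0.422.

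Other Ube3a transcripts with long coding sequences were Ube3a-201 (2547 coding bases; 10.2% ± 0.439 of TPM against 14.7% ± 1.43 alignment-free) and Ube3a-216 (2286 coding bases; 2.09% ± 0.832 against 1.53% ± 0.837). Of the remaining protein-coding entries, Ube3a-217 held 4.36%, Ube3a-213 2.91%, Ube3a-202 1.72% and Ube3a-207 1.48% of alignment-based TPM. Ube3a-212 and Ube3a-218 were listed at 0 in both quantifications. The retained-intron entry Ube3a-214 held 4.09% ± 4.11 in the alignment-based tables and 0 in the alignment-free ones, so its share did not exceed its own spread.

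Beside other HECT ligases the level of Ube3a was in the middle. Each of the 8 genes of that list passed 1 TPM in each library, and their median was 57.7 ± 8.00 TPM. Nedd4 led at 121 ± 2.99 TPM, followed by Huwe1 at 118 ± 12.5 TPM and Nedd4l at 81.1 ± 16.3 TPM, and Itch was lowest at 23.7 ± 0.184 TPM. Herc2, which also lies in the flank of the locus and encodes a ligase that binds UBE3A, had 55.2 TPM in replicate 1, with 63.6 TPM in replicate 2, a range that overlaps that of Ube3a.

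Snhg14, the snoRNA host, had 698 TPM in replicate 1, with 976 TPM in replicate 2 (837 ± 197 TPM), from 15522 and 16600 counts. It stood 11.3 times and 18.1 times above Ube3a in TPM. That ratio depends on length, since Snhg14 is annotated in short partial transcripts. Its counts were divided by effective lengths of 986 and 1008 bases, against 4410 and 4943 bases for Ube3a. In counts the 2 genes lay closer, with 6149 and 4509 for Ube3a. In replicate 1 Snhg14 lay below Snurf, and in replicate 2 above it, so their order in the gene table did not hold between libraries. In the alignment-free tables it led the locus, at 1081 and 1536 TPM. Its estimated counts there were also higher, 24844 and 27352.

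The annotation breaks Snhg14 into 15 partial transcripts, the first beginning 29.4 kb and the last ending 697 kb downstream of the Snrpn-201 start. The pieces were far from even, and the quantifications placed the reads differently. Snhg14-203, 309 to 329 kb downstream, held 51.9% of the gene's TPM in replicate 1 and 46.6% in replicate 2 in the alignment-based tables. Snhg14-206, 142 to 235 kb downstream, led the alignment-free tables with 26.3% and 26.9%. Snhg14-208, at 552 to 559 kb, had 109 and 191 TPM in the alignment-based tables, against 9.75 and 14.7 TPM in the alignment-free ones. The piece at 100 to 294 kb had 55.5 and 74.8 TPM against 191 and 253 TPM, and Snhg14-210, at 594 to 621 kb, had 60.8 and 96.9 TPM against 190 and 313 TPM. The piece spanning 130 to 386 kb had 33.4 and 45.8 TPM against 55.9 and 71.7 TPM. The end over Ube3a was low in both: Snhg14-213, at 681 to 697 kb, had 5.07 and 9.73 TPM alignment-based and 8.81 and 17.04 TPM alignment-free. Near Snrpn, Snhg14-211 (29.4 to 67.7 kb) was at an intermediate level, with 19.5 and 27.1 TPM alignment-based. Another piece there, at 31.7 to 58.5 kb, was listed at 0 in the alignment-based tables. It had 7.41 and 7.09 TPM in the alignment-free ones.

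**Figure D3:**
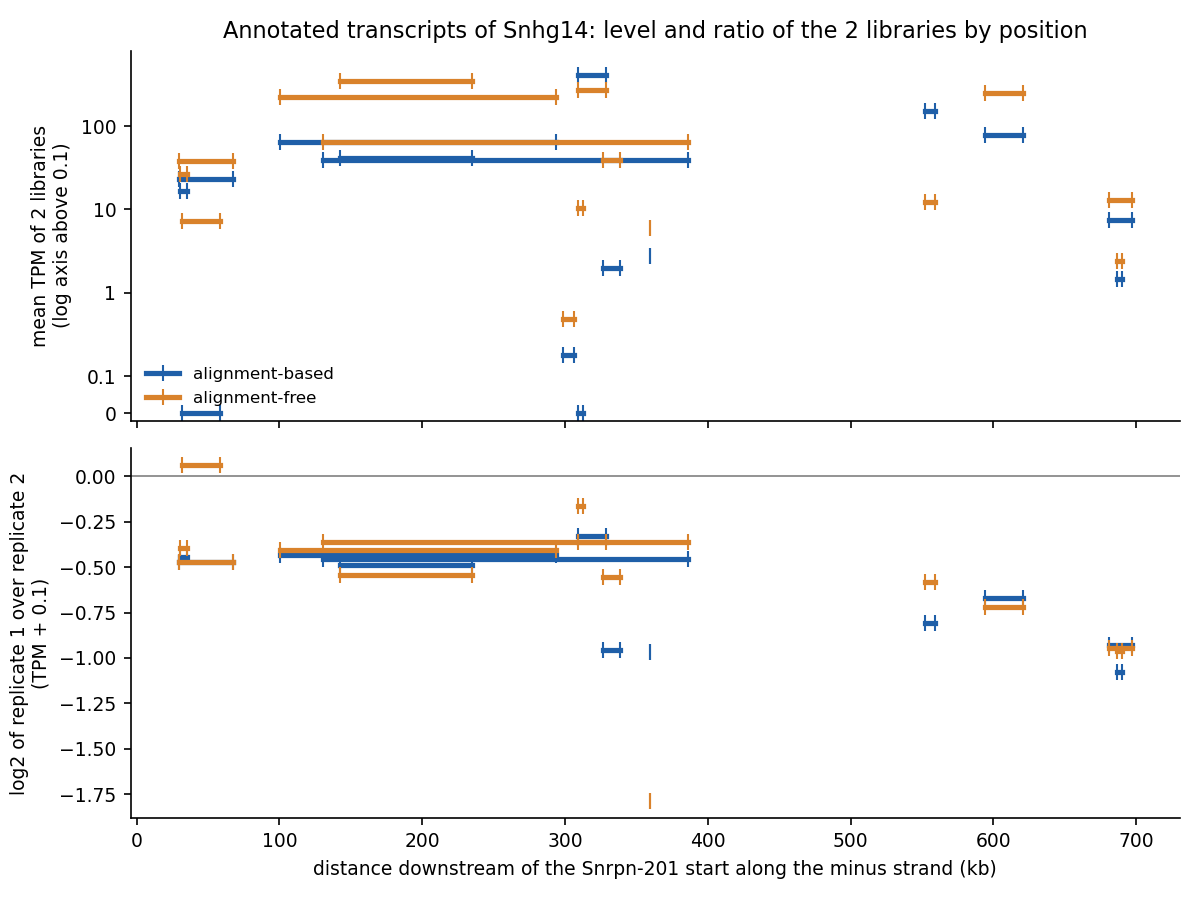
Annotated transcripts of Snhg14, drawn as bars from their first to their last base by distance downstream of the Snrpn-201 start (kb), from alignment-based (blue) and alignment-free (orange) tables. The upper panel gives the mean TPM of both libraries (log axis above 0.1) and the lower panel the log2 ratio of replicate 1 over replicate 2 (TPM + 0.1) for transcripts with a mean of 1 TPM or more; the 4 transcripts beyond 550 kb lie at -0.67 to -1.08 in the alignment-based tables.

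Ndn, Magel2 and Mkrn3 lie more than a megabase from Snrpn, near the other end of the stretch. Ndn encodes necdin, a MAGE family protein that restrains growth of postmitotic neurons. It had 46.7 TPM in replicate 1, with 44.3 TPM in replicate 2, from 3789 and 2685 counts (45.5 ± 1.74 TPM). Magel2 encodes another MAGE protein, known from the hypothalamus, that works with a ubiquitin ligase in endosomal protein recycling. It had 66 and 45 counts, or 0.650 and 0.590 TPM. Mkrn3 encodes a makorin known as a brake on puberty in the hypothalamus. It had 8 and 5 counts, or 0.140 and 0.120 TPM. Magel2 and Mkrn3 were thus detected above the 3-count limit in both libraries but stayed below 1 TPM. In bulk tissue, fewer cells that express a gene and less of its RNA per cell cannot be told apart.

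The listed relatives and partners of these genes were more abundant than Magel2 and Mkrn3. All 6 other MAGE genes on the list used here were above 1 TPM in each library. Maged1 had 185 ± 6.02 TPM, Magee1 62.1 ± 0.573 TPM and Maged2 20.5 ± 0.820 TPM, and Magee2 was lowest at 2.40 ± 0.177 TPM. MAGE genes outside this list were not examined. Ndn lay between Magee1 and Maged2. The partners through which MAGEL2 acts on the WASH complex, which drives actin on endosomes, were all present: 8 of 8 reached 1 TPM, and their median was 18.5 ± 1.33 TPM. Usp7 led at 76.8 ± 9.06 TPM, followed by Vps35 at 52.9 ± 2.31 TPM and Washc2 at 39.4 ± 2.58 TPM, and Washc3 was lowest at 9.49 ± 0.771 TPM. The makorins Mkrn1 and Mkrn2 had 54.6 ± 1.36 and 14.7 ± 0.764 TPM.

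Of 8 genes of the flanks, which are not imprinted in most tissues, 7 reached 1 TPM in each library and the median was 20.8 ± 0.467 TPM. Among these 8, Herc2 was highest at 59.4 ± 5.93 TPM, followed by Cyfip1 at 32.0 ± 2.00 TPM and Nipa1 at 27.0 ± 0.926 TPM. Oca2, a pigmentation gene, was lowest at 0.0600 ± 0.0283 TPM. Of the other imprinted genes listed for the region, Atp10a had 2.82 TPM in replicate 1, with 4.41 TPM in replicate 2, and Peg12 had 0.10 and 0.05 TPM. Ipw was not found by that name and is not analysed here.

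**Figure D4:**
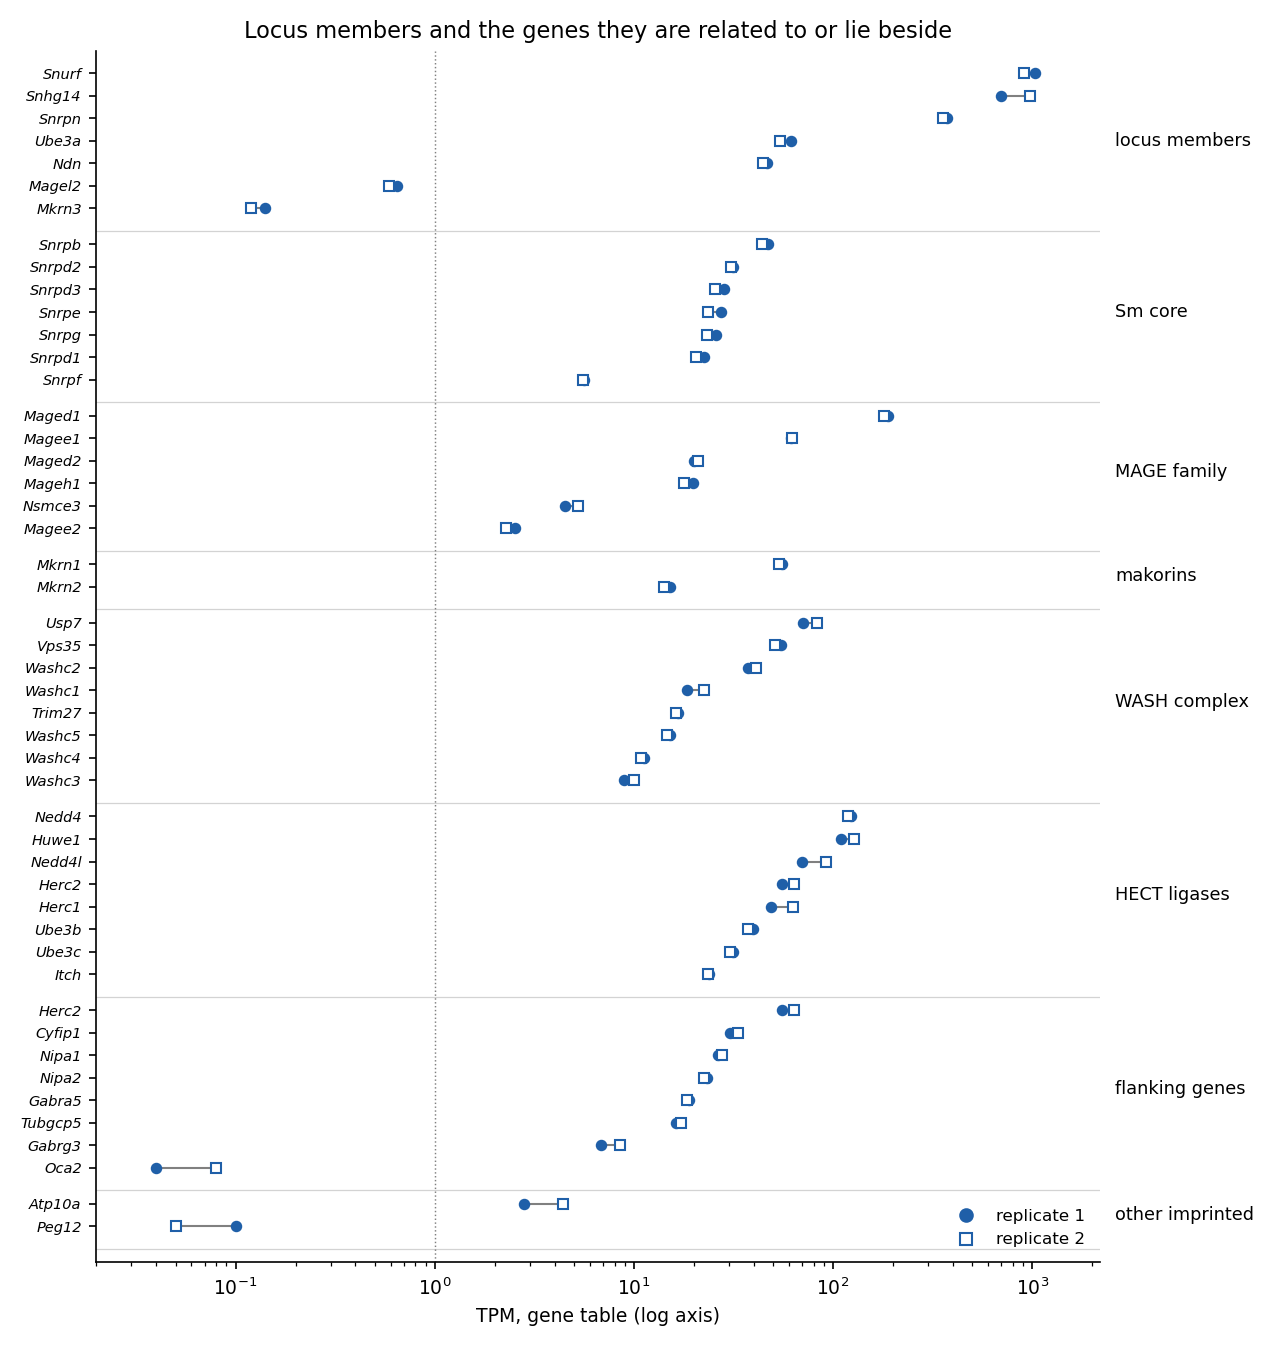
Level in TPM of the gene table (log axis) of the 7 members and of 7 further groups of genes that are related to them or lie beside them, in replicate 1 (filled circles) and replicate 2 (open squares); the dotted line is at 1 TPM. Snrpn lies to the right of every Sm core gene, and Magel2 and Mkrn3 lie to the left of every MAGE, makorin and WASH complex gene shown.

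The 2 libraries were then compared member by member, as log2 ratios of replicate 1 over replicate 2 after TMM scaling. With 1 library on each side there is no test, and the intervals given are exact counting intervals at 95%. Of the 6 members with a mean of 10 counts or more, 0 lay past 2-fold, against 5.46% of the 18246 genes compared; Mkrn3 had too few counts. Among these 6, the 5 protein-coding members were higher in replicate 1: Snurf by 0.23, Magel2 by 0.17, Ndn by 0.12, Snrpn by 0.10 and Ube3a by 0.07. Their counting intervals lay above 0 except for Magel2 (-0.40 to 0.75). These ratios were at or above those of 61.9% (Ube3a) to 84.6% (Snurf) of the genes compared, and the median of all protein-coding genes was 0.03. Snhg14 was the 1 member lower in replicate 1, at -0.48 (-0.51 to -0.44), and 13.3% of the genes compared had a ratio as low or lower. Ube3a and Snhg14, which overlap on opposite strands over 3613 bases, thus differed in the direction of their ratios.

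The ratio of Snhg14 was set beside those of other noncoding RNAs. The 281 compared genes of its own class, processed transcripts, had a median log2 ratio of -0.22 (5% to 95% quantiles -1.08 to 0.66). The median was -0.16 over 537 lincRNA genes (-1.03 to 0.62) and -0.15 over 389 antisense genes (-0.93 to 0.54). Among single long noncoding RNAs, most of them known to stay in the nucleus, the log2 ratio was -0.80 for Meg3, -0.68 for Snhg11, -0.62 for Miat, -0.56 for Neat1, -0.52 for Malat1 and -0.34 for Xist. These 6 were chosen after earlier values were known and lie further below 0 than the class medians, and their part in the ratio of Snhg14 was not tested. Within Snhg14 the median ratio was lower for the transcripts nearer to Ube3a. The 8 transcripts that end within 400 kb of the Snrpn-201 start and had a mean of 1 TPM or more had a median log2 ratio of -0.46 (-0.97 to -0.33), and the 4 beyond 550 kb one of -0.87 (-1.08 to -0.67), on the TPM scale. In the alignment-free tables the medians were -0.40 over 10 transcripts (-1.79 to 0.06) and -0.83 over 4 (-0.96 to -0.58). The ranges overlap, the distances were chosen after the values were seen, and the pieces share reads.

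Unnamed entries of the stretch were set beside the members. Of its 266 genes, 27 had counts and 20 reached 1 TPM in both libraries. The most abundant that are not members were Gm38393, which overlaps Snurf and Snrpn, at 28.4 TPM in replicate 1 and 39.0 in replicate 2, and the long noncoding RNA B230209E15Rik, with 36.2 and 28.9 TPM. A330076H08Rik had 11.5 ± 3.78 TPM, A230057D06Rik 9.31 ± 3.01 TPM and Gm44560 7.04 ± 3.11 TPM. Gm38393 shares the whole of Snurf-201, and its counts were fractional, so its level is uncertain too.

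On the strand opposite to Ube3a, 4 entries of the TEC class, loci that GENCODE lists for later experimental testing, covered parts of Ube3a. Gm44560 had 329 counts in replicate 1 and 470 in replicate 2, and 9330162G02Rik, 30942 bases long, had 1905 and 2793. Gm44559 and Gm44562 had 76 and 53 counts in replicate 1, and 122 each in replicate 2. All 4 were lower in replicate 1, with a median log2 ratio of -0.99. Over the stretch, 13 minus-strand TEC and long noncoding entries were compared; 12 were lower in replicate 1 (median -0.93), and 5 lay past 2-fold lower in replicate 1. B230209E15Rik, at 0.36, was the exception. The 1 plus-strand TEC entry compared, Gm44829, was also past 2-fold lower in replicate 1, at -1.21. Over all genes compared the median was -0.00025.

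The same ratios were taken over TEC entries of the whole genome. Over all genes compared, 4.46% lay past 2-fold lower in replicate 1, but among the 1345 TEC entries of the genome 37.7% did, with a median of -0.84, against 0.723% of protein-coding genes, with a median of 0.03. Whether counting used the strand is not given in the sources used here, and mixing of reads of Ube3a and of its antisense entries was not tested. The expected counts of Ube3a, of Snhg14 and of the 4 TEC entries opposite to Ube3a were whole numbers in both libraries. Fractions mark reads shared out between genes, and what whole numbers mean for such mixing was not tested. Gm44830, a TEC entry on the strand of Ube3a, had 6.85 counts per kb in replicate 1 and 12.0 in replicate 2, from 4 and 7 counts. The 4 entries on the opposite strand had 39.3 to 106 counts per kb in replicate 1 and 90.3 to 151 in replicate 2. Gm44830 is 1 entry with few counts, and no conclusion is drawn from this comparison.

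**Figure D5:**
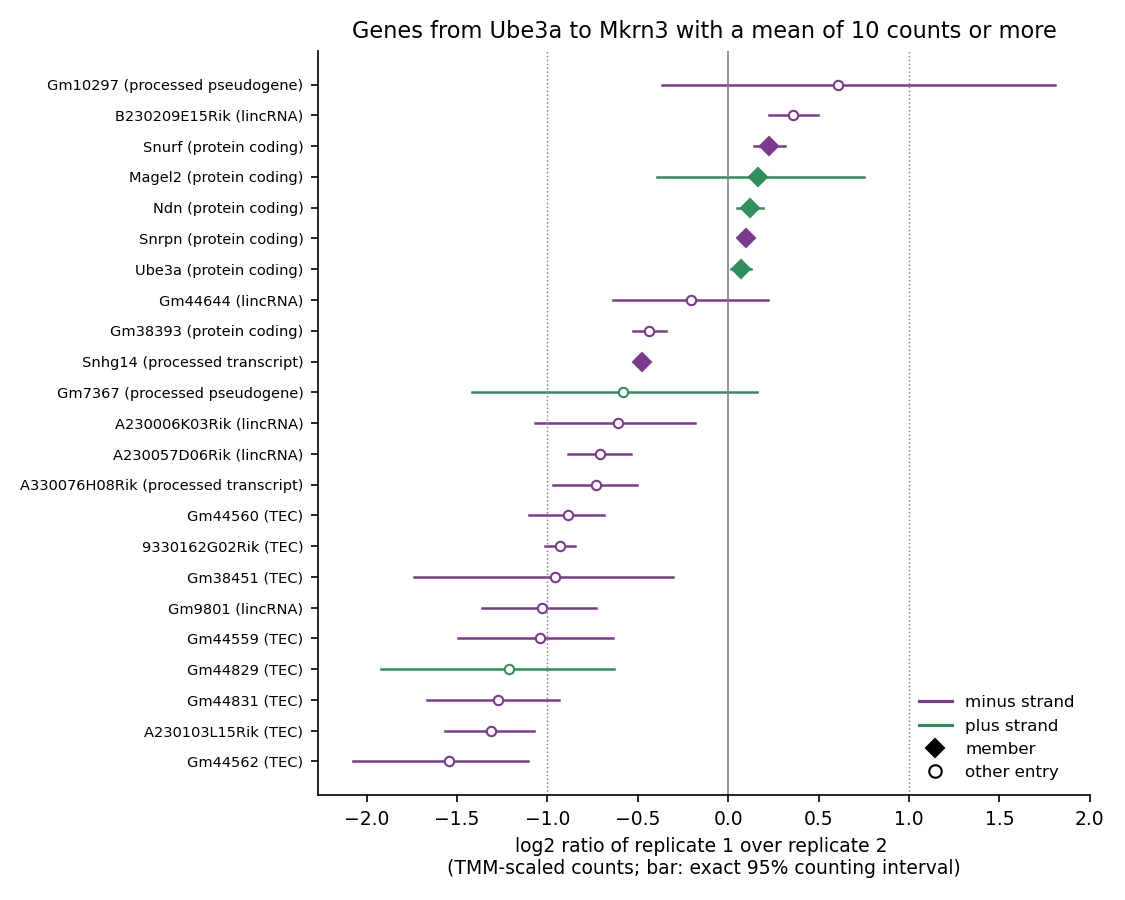
Log2 ratio of replicate 1 over replicate 2 (TMM-scaled counts) for the genes from Ube3a to Mkrn3 with a mean of 10 counts or more, sorted by ratio, with exact 95% counting intervals; diamonds are members, open circles other entries, purple the minus and green the plus strand, and dotted lines mark 2-fold. The 5 protein-coding members lie between 0.07 and 0.23, Snhg14 at -0.48, and the TEC entries at -0.89 or below.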

How the data were processed

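Total RNA-seq of 2 libraries was analysed from the deposited tables (mm10, GENCODE M21, per the file headers and labels). Per the file headers, the authors' alignment-based tables hold expected counts, TPM and isoform shares in percent, with posterior spreads and bounds (a signal on the count or TPM scale); estimated counts and TPM, both per transcript, make up the deposited alignment-free tables. Which aligner and quantifiers were used is not given in the sources used here. The alignment-based TPM were scaled over spike-ins and short-RNA entries as well as genes, and the alignment-free TPM over annotated transcripts alone. In the alignment-based tables, genes took 991616 TPM in replicate 1 and 992266 TPM in replicate 2. Genes of short structural RNAs, counted among these, took 38.5% and 39.1% of the TPM. Their part in the difference between the quantifications was not tested.

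From these, alignment-free values were summed to genes, and each level was taken as a mean ± SD of TPM (n = 2). Expected counts were rounded, genes averaging at least 10 counts kept, scaled with edgeR 4.0.16 (TMM) in R 4.3.3, and log2 CPM taken with a prior count of 2. The steps were tested on simulated data. No molecular identifiers are recorded. Coordinates and transcript sequences came from GENCODE M21, and start windows from RefSeq (GRCm38.p6). Spike-ins and short-RNA entries were left out of gene comparisons; spike-ins held 0.452% and 0.406% of counts.

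The members and gene lists were chosen with earlier results of these data known. A listed flanking gene and a listed cortical marker are not reported here and were left out of their lists. Named genes were all members, the 3 highest and the lowest of each list by mean TPM with Snrpb and Herc2, the 5 highest other genes of the stretch, member transcripts with 5 percent of TPM in any table and all protein-coding Ube3a transcripts. Genes and pieces outside this rule (the snoRNAs, nuclear RNAs, TEC entries and 2 pieces of Snhg14) were named after their values were seen. No p-value was computed.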

Additional observations from a re-analysis of the deposited data

How the results depend on the processing

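Of the 34 alternative values tried for the main results, 27 stayed within the spread between libraries or, for counts, within 1.5 times, and 7 moved further. No direction was called, so none could turn. For levels and shares, a single library always lies within the SD of 2 libraries. The values with 1 library left out were therefore unmoved by construction and say nothing of robustness. The median level of the 7 members, 58.0 TPM, was that of Ube3a. With alignment-free values it was 68.1 TPM, that of Ndn, since Snurf was at 0 there, and Ube3a itself had 96.0 TPM. The median was 96.0 TPM when rescaled without short structural RNA, spike-ins and short-RNA entries. Leaving out 1 library gave 54.1 to 61.8 TPM. The share of Snrpn-201, 96.6%, was 0.0539% alignment-free, where another transcript led (96.1% to 97.2% with 1 library left out). The summed Snurf and Snrpn level, 1331 TPM, was 535 TPM alignment-free (1260.2 to 1401 TPM with 1 library left out). The share of Snrpn in Snrpn plus Snrpb, 88.9%, was 87.6% alignment-free and 96.7% with Snurf counted with Snrpn. Of the genes of the stretch, 9 reached 5 TPM, against 20 at 1 TPM. Why the quantifications differ was not tested.

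With alignment-free values 4 members reached 1 TPM, against 5, since Snurf was at 0. DESeq2 1.42.0 size factors, library size alone, no filter, a prior count of 0.5 and alignment-free counts each left 0 members past 2-fold between libraries. Of 108 alternative values for single members and transcripts, 33 moved beyond their spread. The 108 include values with 1 library left out, which could not move beyond it. No paired analysis was possible because there is only 1 group. Depth limits Mkrn3 (8 and 5 counts) and Magel2, and with 2 libraries no difference between them can be tested.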
